A study of Mus musculus with 12 samples.

Results

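The triad calcium release apparatus was followed through 10 genes, all of which were measured: Cacna1s, Cacnb1, Cacng1 and Stac3 of the voltage sensor, Ryr1 and Ryr3 of the release channel, Casq1 and Casq2 of the calcium store, and Jph1 and Jph2 of the membrane junction. Members were taken by gene symbol from an array with 35557 transcript clusters. Each is a group of probes summarised to 1 value, which may cover several transcripts of a gene. Of these clusters 21789 carried exactly 1 symbol, together standing for 19938 genes, and 12 belonged to the members. Jph1 and Jph2 had 2 clusters each, and the cluster with the higher mean over the 12 arrays stands for the gene.

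All 12 arrays held RNA of C2i-Myog, a stable derivative of C2C12 mouse myoblasts in which doxycycline drives a Flag-tagged cDNA of the myogenic transcription factor myogenin (Myog). Differentiation, in which C2C12 cells fuse into myotubes, was started near confluence by 48 h in 1% horse serum with insulin and transferrin. SB+Dox cells received SB203580, which inhibits p38α and p38β MAP kinases, at 10 µM together with doxycycline at 0.2 µg/mL, SB cells received the inhibitor alone, Dox cells received doxycycline alone, and control cells received neither, with 3 arrays in each group. The control's own label names no differentiation, while the protocol given with every sample does. Nothing in the labels says whether the 3 came from separate cultures, so p-values measure the spread between these arrays, which may be technical. Every group carried the transgene and the study has no doxycycline control without it, so the effects of doxycycline and of the transgene cannot be told apart. The line is described as stable, and the labels do not say whether it is 1 clone.

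In skeletal muscle the triad is the place where a tubule of the surface membrane meets the sarcoplasmic reticulum on both of its sides. The calcium channel of the tubule senses the action potential and opens the ryanodine receptor of the reticulum by direct contact, calsequestrin holds the calcium to be released, and junctophilins keep the membranes close together. The genes are switched on as myoblasts become myotubes, under MyoD-family and MEF2 factors, and p38 kinases are known activators of that programme.

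Values are log2 RMA signals, the normalised brightness of a transcript cluster on a log2 scale, and no value is compared between genes because probes differ. Array medians over the clusters with 1 symbol lay between 5.29 and 5.44, and replicates correlated at 0.989 to 0.996. Myog, whose transgene doxycycline was meant to switch on, measured 8.10, 8.23 and 8.68 in SB+Dox, 6.93, 7.96 and 8.21 in SB, 10.39, 10.30 and 10.40 in Dox and 9.66, 10.18 and 9.89 in control. In SB it stood 4.63-fold below control (adjusted p = 9.39e-05), and its doxycycline changes missed the test, at 0.64 with the inhibitor (adjusted p = 0.157) and 0.46 without it (adjusted p = 0.467). Without SB replicate 3 the change with the inhibitor passed (adjusted p = 0.0311). The labels do not say whether the probes of Myog see the transgene's RNA. The muscle markers Myod1, Myog, Des, Mymk, Acta1, Myh3, Tnnt3 and Ckm all lay above the array median in every group. Their mean level ran from 10.29 to 10.55 in SB+Dox, 9.15 to 9.89 in SB, 10.76 to 11.01 in Dox and 10.33 to 10.74 in control. In whole cultures fewer differentiated cells and less RNA per cell cannot be told apart.

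Cacna1s encodes the pore and voltage sensor of the skeletal muscle calcium channel. It measured 5.93, 6.14 and 6.87 in SB+Dox, 5.33, 5.53 and 5.46 in SB, 7.33, 8.02 and 8.15 in Dox and 6.84, 7.32 and 7.21 in control. The SB arrays formed the lowest group, at percentiles 48 to 52.3 of their arrays, and the Dox arrays the highest. Signal over background was not measured here. Among neighbours only SB+Dox and control overlapped. Cacnb1, whose β subunit carries the pore to the triad membrane, measured 7.88, 8.01 and 8.22 in SB+Dox, 6.46, 6.64 and 6.92 in SB, 8.44, 8.75 and 8.90 in Dox and 8.12, 8.30 and 8.16 in control. It had the same order of groups, SB lowest, then SB+Dox, control and Dox. Cacng1, the γ subunit that limits the calcium current, measured 10.36, 10.40 and 10.45 in SB+Dox, 9.42, 9.70 and 9.79 in SB, 10.87, 11.06 and 10.73 in Dox and 10.77, 10.77 and 10.43 in control. Its SB arrays stood below all other arrays. Stac3, an adaptor that couples the channel to the ryanodine receptor, measured 6.44, 6.64 and 6.59 in SB+Dox, 5.95, 6.33 and 6.66 in SB, 6.85, 6.96 and 6.83 in Dox and 6.89, 7.07 and 6.89 in control. Both groups with the inhibitor lay below both groups without it, and SB overlapped SB+Dox.

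Ryr1, the ryanodine receptor of adult skeletal muscle, measured 7.90, 8.09 and 8.56 in SB+Dox, 7.17, 7.50 and 8.11 in SB, 8.43, 8.80 and 8.57 in Dox and 8.31, 8.61 and 7.97 in control. SB had the lowest mean, but SB replicate 3 reached into the SB+Dox and control ranges. Ryr3, the isoform found mainly in developing muscle, measured 5.25, 5.49 and 5.78 in SB+Dox, 5.41, 5.40 and 5.82 in SB, 5.38, 5.65 and 5.34 in Dox and 6.12, 6.20 and 5.74 in control. It stood near the array median throughout, control had the highest mean, and the 3 treated groups overlapped each other.

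Calsequestrin is the calcium-binding protein of the reticulum, and its genes ranked the groups in different orders. Casq1, the isoform of fast skeletal muscle, measured 5.0, 4.94 and 5.78 in SB+Dox, 4.83, 4.95 and 5.18 in SB, 4.96, 5.58 and 5.54 in Dox and 5.70, 6.37 and 6.34 in control. Control had the highest mean, 1 array of SB+Dox exceeded its lowest array, and the 3 treated groups overlapped around the array median. Casq2, the isoform of heart and of slow and developing muscle, measured 9.59, 9.54 and 9.95 in SB+Dox, 6.86, 7.14 and 7.77 in SB, 8.91, 9.28 and 9.28 in Dox and 7.95, 8.39 and 7.88 in control. Its groups did not overlap, with SB lowest, then control, then Dox, and SB+Dox highest, an order no other member had. The cardiac markers Nkx2-5, Gata4, Hand2, Tbx5, Myh6, Nppa and Nppb had a mean level of 5.08 to 5.23 in SB+Dox, 5.18 to 5.43 in SB, 5.12 to 5.2 in Dox and 5.11 to 5.22 in control, and 2 or 3 of the 7 lay above the array median in each group. By limma 0 of the 7 were called in each comparison, with 1 at an unadjusted p under 0.05 in SB+Dox against Dox and 0 in the others. Of all clusters 0.895% to 10.4% were called, depending on the comparison, so 0 of 7 is close to these shares. The link between these markers and Casq2 was not tested.

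Junctophilins span the gap between the tubule and the reticulum. Jph1, the isoform of skeletal muscle, measured 9.16, 8.84 and 9.10 in SB+Dox, 8.38, 8.37 and 8.70 in SB, 9.27, 9.35 and 9.35 in Dox and 9.23, 9.38 and 8.92 in control. Only SB stood apart from all other groups. Jph2, shared by heart and skeletal muscle, measured 7.83, 8.15 and 8.24 in SB+Dox, 6.57, 7.02 and 7.02 in SB, 8.44, 8.95 and 8.66 in Dox and 8.46, 8.74 and 8.40 in control. SB+Dox lay between SB and control without touching either, and Dox overlapped control. The other cluster of each gene gave the same order of groups. In SB against control it changed by -0.53 for Jph1 (adjusted p = 0.0109) and -1.31 for Jph2 (adjusted p = 4.59e-05), and in SB+Dox against SB by 0.40 for Jph1 (adjusted p = 0.0474) and 0.90 for Jph2 (adjusted p = 0.00118).

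**Figure D1:**
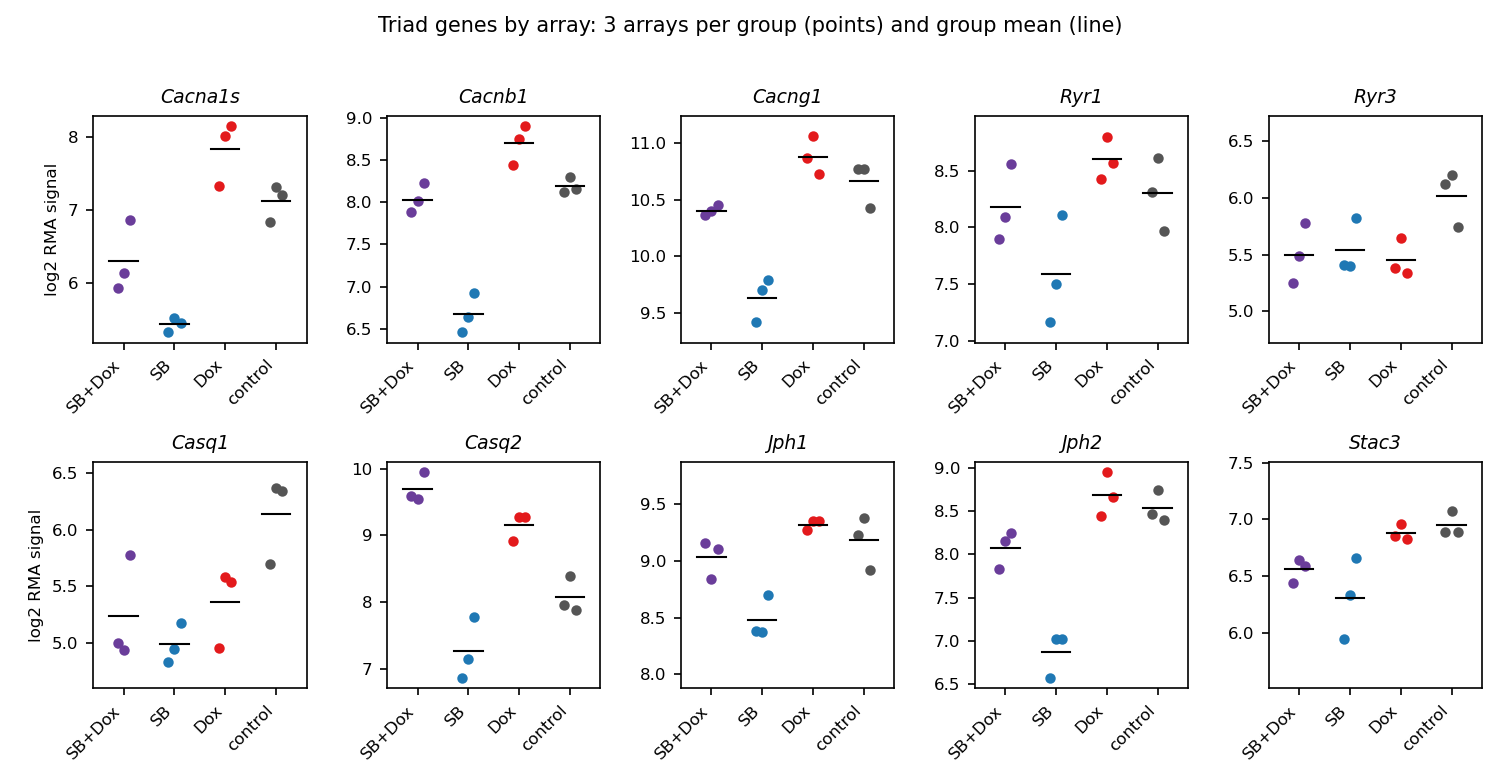
Log2 RMA signal of the 10 triad genes on each of the 12 arrays, with 3 points per group (SB+Dox, SB, Dox, control) and a line at the group mean. Vertical axes differ between genes and do not start at 0. SB is the lowest group for 9 of the 10 genes, Ryr3 being the exception, and Casq2 alone is highest in SB+Dox.

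Across members SB replicate 1 was the lowest of all 12 arrays for 8 of 10 genes. Within the SB group replicate 3 was the highest array for 8 of 10 genes, as replicate 3 was within SB+Dox. The mean over the 10 members was 7.53, 7.62 and 7.95 in SB+Dox, 6.64, 6.86 and 7.14 in SB, 7.89, 8.24 and 8.14 in Dox and 7.84, 8.11 and 7.79 in control.

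**Figure D2:**
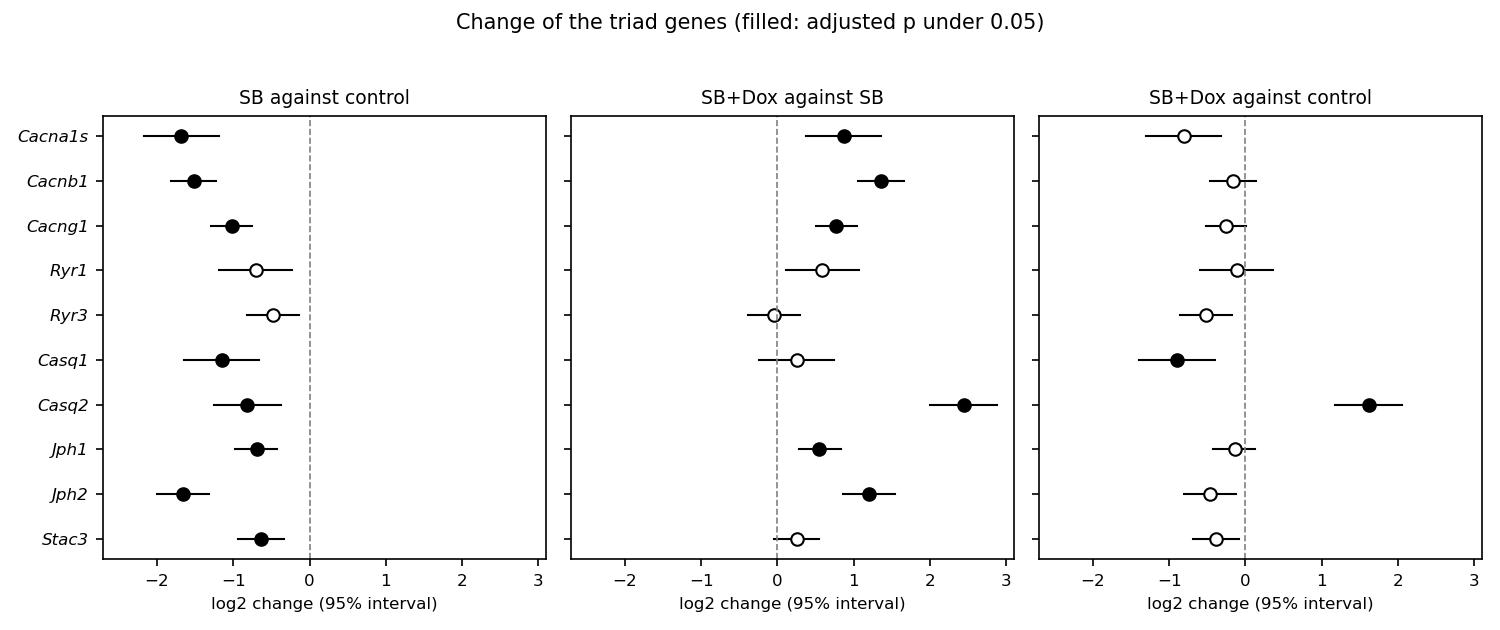
Log2 change of each triad gene with its 95% interval (horizontal lines, unadjusted) for SB against control, SB+Dox against SB and SB+Dox against control, with filled points at adjusted p under 0.05. Filled points number 8, all left of 0, then 6, all right of 0, and then 2, Casq1 left of 0 and Casq2 right of it.

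SB against control asks what the inhibitor did without doxycycline. Of the 10 members 8 fell and the other 2, Ryr1 and Ryr3, did not pass the test, against 3.87% of all tested clusters called lower and 6.38% called in either direction. A gene is called where its adjusted p is under 0.05. Adjusted p-values here and below are from limma with Benjamini-Hochberg adjustment over 21789 clusters, with n = 3 arrays per group. The median change of the members was -0.92, beside 0.03 for all clusters, and all 10 changes were negative. Cacna1s was 3.21-fold lower (log2 change -1.68, SE 0.23, adjusted p = 4.29e-04), Jph2 3.16-fold lower (-1.66, SE 0.16, adjusted p = 2.29e-05) and Cacnb1 2.87-fold lower (-1.52, SE 0.14, adjusted p = 1.54e-05). Casq1 was 2.22-fold lower (adjusted p = 0.00678), Cacng1 2.03-fold (adjusted p = 1.71e-04), Casq2 1.76-fold (adjusted p = 0.0254), Jph1 1.62-fold (adjusted p = 0.00434) and Stac3 1.56-fold lower (adjusted p = 0.0118). SB and control did not overlap in any of the 8, as was so, with SB lower, in 9.72% of all clusters. Ryr1 changed by -0.70 (95% interval -1.18 to -0.23, adjusted p = 0.0829) and Ryr3 by -0.48 (-0.82 to -0.14, adjusted p = 0.105).

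The call on Casq2 was lost without control replicate 2 (adjusted p = 0.122), SB replicate 1 (0.118) or SB replicate 2 (0.108), and that on Stac3 without control replicate 2 (0.0565). With every cluster tested both were lost (Casq2 0.0963, Stac3 0.0509), and with only the groups compared in the fit Casq2 was lost (0.0557). Array weights gave calls to Ryr1 (0.00465) and Ryr3 (0.00448). Without SB replicate 3 Ryr1 passed (adjusted p = 0.01), and Ryr3 passed without SB replicate 3 (0.0327) or control replicate 3 (0.0497). Among the 8 muscle markers Acta1, Ckm, Mymk, Myod1 and Myog fell as well, and their part in the changes of the triad genes was not tested.

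The second comparison, SB+Dox against SB, addresses what doxycycline, meant to switch on the transgene, did while the inhibitor was present. Of the 10 members 6 rose and 4 did not pass, against 4.4% of all clusters called higher, 2.71% called lower and 7.11% in either direction, and the median change was 0.68 beside -0.04 for all clusters. Casq2 rose 5.41-fold (log2 change 2.44 with SE 0.20, adjusted p = 2.71e-05), Cacnb1 2.57-fold (1.36, SE 0.14, adjusted p = 8.92e-05) and Jph2 2.3-fold higher (1.20, SE 0.16, adjusted p = 5.17e-04). Cacna1s was 1.83-fold higher (adjusted p = 0.0314), Cacng1 1.71-fold (adjusted p = 0.00177) and Jph1 1.47-fold higher (adjusted p = 0.017). For these 6 genes all SB+Dox arrays lay above all SB arrays, as in 12.8% of all clusters. Ryr1 changed by 0.59 (95% interval 0.11 to 1.07, adjusted p = 0.141), Casq1 by 0.25 (-0.24 to 0.74), Stac3 by 0.25 (-0.05 to 0.55) and Ryr3 by -0.04 (-0.38 to 0.30). The muscle markers Acta1, Ckm, Myh3, Mymk and Tnnt3 rose in the same comparison, while Myog and Des did not pass. Myod1 went the other way, at -0.49, and did not pass (adjusted p = 0.0653). Its SB+Dox arrays lay below all SB arrays, as in 12.3% of clusters.

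The call on Cacna1s was lost without SB replicate 1 (adjusted p = 0.112), SB replicate 2 (0.0775), SB+Dox replicate 2 (0.05) or SB+Dox replicate 3 (0.156), and that on Jph1 without SB replicate 1 (0.0731), SB replicate 2 (0.0848), SB+Dox replicate 1 (0.0716) or SB+Dox replicate 3 (0.0822). With every cluster tested both were lost too (Cacna1s 0.109, Jph1 0.0571). Without SB replicate 3 Ryr1 (adjusted p = 0.0176) and Stac3 (0.0389) passed, and with array weights Ryr1 did (0.0293).

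SB+Dox against control asks where the genes stood when both agents were given, compared with cells given neither. It shares its arrays with the preceding comparisons. Of the 10 members Casq2 was called higher and Casq1 lower, against 2.84% of clusters called higher, 2.42% lower and 5.26% in either direction. Casq2 was 3.07-fold above control (log2 change 1.62, SE 0.20, adjusted p = 2.55e-04). Casq1 was 1.86-fold below it (log2 change -0.90, SE 0.23, adjusted p = 0.0348), although SB+Dox replicate 3 at 5.78 exceeded control replicate 1 at 5.70. The smallest differences were those of Ryr1 (-0.11, 95% interval -0.59 to 0.36), Jph1 (-0.14, -0.42 to 0.13), Cacnb1 (-0.16, -0.46 to 0.14) and Cacng1 (-0.25, -0.52 to 0.01). Cacna1s (-0.81, adjusted p = 0.0549), Ryr3 (-0.51, adjusted p = 0.0864), Jph2 (-0.46, adjusted p = 0.13) and Stac3 (-0.39, adjusted p = 0.148) had intervals below 0 and missed the adjusted threshold. Casq1 lost its call without control replicate 2 (adjusted p = 0.131), control replicate 3 (0.142), SB replicate 2 (0.0519), SB+Dox replicate 1 (0.131) or SB+Dox replicate 2 (0.156). It was also lost after quantile normalisation (0.0505), after median centring (0.0505), with every cluster tested (0.121) and with only the groups compared (0.0575). Array weights gave 7 calls, 1 higher and 6 lower, and leaving out clusters under the 50th percentile gave 4, 1 higher and 3 lower. Cacna1s passed with both of these (0.0267 and 0.0346), with clusters under the 25th percentile left out (0.0435) and with eBayes with trend (0.0417). Stac3 passed with only the groups compared (0.0466). Passing calls appeared for Cacna1s without Dox replicate 1 (0.0295) or SB+Dox replicate 3 (0.00768), for Ryr3 without control replicate 3 (0.0461) or SB+Dox replicate 3 (0.0482), and for Stac3 without SB replicate 1 (0.0436) or SB replicate 3 (0.0449). Of the 8 muscle markers Myog and Myod1 were lower, 2.98-fold (adjusted p = 0.00162) and 2.06-fold (adjusted p = 6.93e-04), and Myh3 was 2.11-fold higher (adjusted p = 0.0267).

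SB+Dox against Dox asks what the inhibitor did in cells that had received doxycycline. Cacna1s, Cacnb1 and Cacng1, subunits of the tubule's calcium channel, fell, as did Jph2. Cacna1s was 2.87-fold lower (log2 change -1.52, SE 0.23, adjusted p = 4.54e-04), Cacnb1 1.58-fold (adjusted p = 0.00537), Jph2 1.53-fold (adjusted p = 0.0207) and Cacng1 1.39-fold lower (adjusted p = 0.0208). These 4 of 10 stand against 3.43% of clusters called lower, 6.97% called higher and 10.4% in either direction, and the median change of the members was -0.37 beside -0.03 for all clusters. Casq2 changed by 0.53 (adjusted p = 0.127), with all SB+Dox arrays above all Dox arrays, as in 15.6% of clusters, and passed without SB replicate 3 (adjusted p = 0.0383). Stac3 changed by -0.32 (adjusted p = 0.198) and Jph1 by -0.29 (adjusted p = 0.218), both with groups apart, as in 13.5% of clusters with SB+Dox lower, and Ryr1 by -0.42, Casq1 by -0.12 and Ryr3 by 0.05. Cacng1 lost its call without Dox replicate 1 (adjusted p = 0.0543), Dox replicate 2 (0.101), SB+Dox replicate 1 (0.0736) or SB+Dox replicate 2 (0.0655), and Jph2 without Dox replicate 2 (0.104), Dox replicate 3 (0.0586) or SB+Dox replicate 1 (0.105). Both were lost with every cluster tested (Cacng1 0.0617, Jph2 0.0723). With only the groups compared Casq2 (0.0341) and Stac3 (0.048) passed, and with array weights Casq2 did (0.0432). Among the 8 muscle markers Myog was 4.09-fold lower (adjusted p = 8.86e-05), Myod1 2.21-fold (adjusted p = 1.38e-04) and Mymk 1.55-fold lower (adjusted p = 0.0317), and their part in the changes of the triad genes was not tested.

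Dox against control asks what doxycycline did without the inhibitor. Casq2 rose 2.12-fold (log2 change 1.08 with SE 0.20, adjusted p = 0.00427) and Cacnb1 1.42-fold higher (0.50, SE 0.14, adjusted p = 0.049), 2 of 10 members against 1.43% of clusters called higher, 3.88% called lower and 5.31% in either direction. Cacna1s changed by 0.71 (adjusted p = 0.108), with its Dox arrays above all control arrays, as in 9.12% of clusters. Casq1 changed by -0.77 (adjusted p = 0.0713) and Ryr3 by -0.56 (adjusted p = 0.057), with their Dox arrays below all control arrays, as in 10.8% of clusters. The other 5 members changed by -0.07 to 0.30 with overlapping groups. Cacnb1 lost its call without any 1 of control replicates 1, 2 and 3, Dox replicates 2 and 3, SB replicate 2, and SB+Dox replicates 1 and 2 (adjusted p = 0.0528 to 0.237), after median centring (0.0622) and with every cluster tested (0.14). With clusters under the 50th percentile left out Casq1 (0.0476) and Ryr3 (0.0346) passed. Ryr3 also passed with those under the 25th left out (0.044), with eBayes with trend (0.0491), with array weights (0.00499) and with only the groups compared (0.0437). Of the 8 muscle markers Mymk rose, 1.7-fold (adjusted p = 0.0168). Calls appeared for Cacna1s without Dox replicate 1 (0.0212) or SB+Dox replicate 3 (0.0353), for Casq1 without control replicate 1 (0.0277) or SB+Dox replicate 3 (0.0252), and for Ryr3 without control replicate 3, SB replicate 3, or SB+Dox replicate 1 or 3 (0.0275 to 0.0469).

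**Figure D3:**
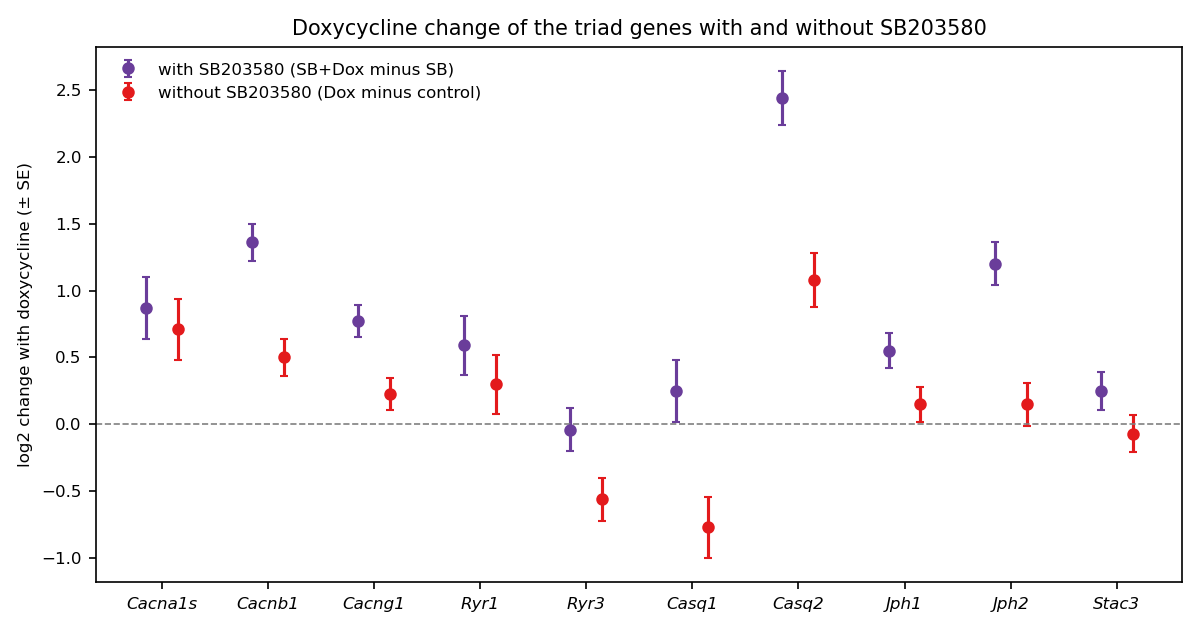
Log2 change with doxycycline for each triad gene, with the inhibitor (SB+Dox minus SB) left of that without it (Dox minus control), bars being the standard error from the model. All 10 estimates with the inhibitor lie above those without it, by 0.16 for Cacna1s up to 1.35 for Casq2.

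The interaction compares the doxycycline change with the inhibitor to that without it. It was positive for Casq2, at 1.35 (SE 0.29, adjusted p = 0.0435), and for Jph2, at 1.05 (SE 0.22, adjusted p = 0.0435), 2 of 10 members against 0.725% of clusters called positive, 0.17% negative and 0.895% in either direction. Cacnb1 had 0.86 (adjusted p = 0.0597), Casq1 1.03 (adjusted p = 0.196) and Cacng1 0.54 (adjusted p = 0.209). Cacna1s had the smallest value, 0.16 (95% interval -0.53 to 0.86). The call on Casq2 was lost on leaving out any of 11 of the 12 arrays (adjusted p = 0.0626 to 0.129), the exception being SB replicate 3. That on Jph2 was lost for 9 of the 12 (0.0626 to 0.124), the exceptions being Dox replicate 2, SB replicate 3 and SB+Dox replicate 1, and without SB replicate 3 Cacnb1 passed (0.0206). Both calls were also lost after quantile normalisation (Casq2 0.0616, Jph2 0.0584) and with every cluster tested (0.189 and 0.177), and that on Casq2 after median centring (0.0523). Cacnb1 passed with dim clusters left out, with eBayes with trend or with array weights (0.0121 to 0.0433).

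Over the 12 arrays the members formed a tight core with outliers. Pearson's r between pairs had a median of 0.72 over 45 pairs and exceeded 0.7 in 23 of them. Cacnb1, Cacng1 and Jph2 were the most alike, with r of 0.98 between Cacng1 and Jph2 and 0.97 between Cacnb1 and Jph2. Ryr3 was most like Casq1 (r = 0.72) and least like Casq2 (r = -0.15), and Casq1 and Casq2 correlated at 0.09. Against the mean of the other members r was 0.87 to 0.97 for Cacna1s, Cacnb1, Cacng1, Ryr1, Jph1, Jph2 and Stac3, 0.62 for Casq1, 0.55 for Casq2 and 0.35 for Ryr3. The points share their arrays and the group differences, so these values are descriptions without a test. Of 9584 other genes in the brighter part of the array the closest to the members' mean profile were Tagln, the smooth muscle protein transgelin (r = 0.982), Myom1, an M-band protein of the sarcomere (0.981), Ftsj3 (0.962), Lig3 (0.958) and Lsp1 (0.957). Tagln measured on average 7.85 in SB+Dox, 6.37 in SB, 8.33 in Dox and 8.28 in control.

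**Figure D4:**
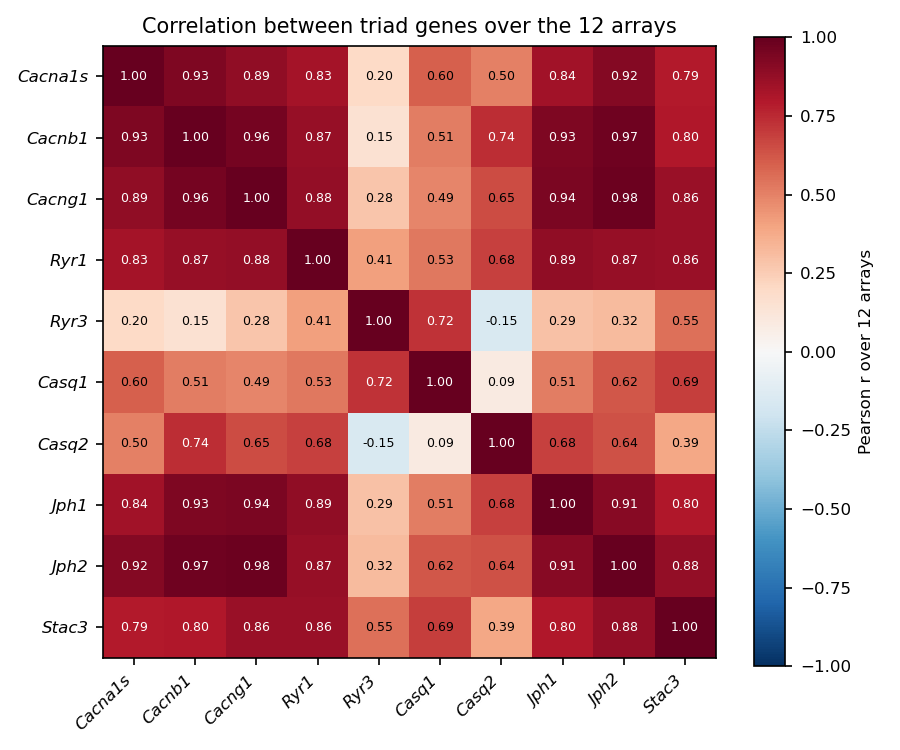
Pearson's r over 12 arrays between each pair of triad genes, from blue (-1) through white (0) to red (1). The rows of Ryr3, Casq1 and Casq2 are paler than the block formed by the other 7 genes, whose values lie between 0.79 and 0.98.

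Promoter sequence was read for the members from RefSeq tables of build GRCm38.p6, which gave 8 windows for 6 of the 10 genes. The 250 bases before the start were searched on both strands for the E-box CANNTG, the letters bound by MyoD-family factors including Myog, and for a MEF2 motif, CTA and TAG with 4 bases of any kind between them. An E-box stood in 6 of the 8 member windows, against 66.2% of 32851 windows of all genes, and CAGCTG, an E-box form favoured by myogenic factors, in 4 of the 8, against 13%. Those 4 belong to 3 genes, since both Jph2 windows overlap and hold the same site. Another E-box form searched, CAGGTG or its complement CACCTG, stood in 1 of the 8, against 17.2% of all windows. The MEF2 letters searched stood in 0 of the 8 windows, against 3.2% of all windows. MEF2 sites with other first or last letters were not searched, so the count does not show that the windows lack such sites. The window of Ryr1 and the first of 2 windows of Cacnb1 held no CANNTG. The second window of Cacnb1 held 1, CACATG. A match is a description of letters and not of binding. Cacnb1 fell in SB against control and rose in SB+Dox against SB, and its windows, neither with CAGCTG, are not shown. The windows shown are those of Cacna1s and Jph2, which did the same, and of both calsequestrins, whose estimates in Dox against control differed in sign. They are given 5′ to 3′ with E-boxes in capitals.
Cacna1s, chr1:136052561-136052810, plus strand: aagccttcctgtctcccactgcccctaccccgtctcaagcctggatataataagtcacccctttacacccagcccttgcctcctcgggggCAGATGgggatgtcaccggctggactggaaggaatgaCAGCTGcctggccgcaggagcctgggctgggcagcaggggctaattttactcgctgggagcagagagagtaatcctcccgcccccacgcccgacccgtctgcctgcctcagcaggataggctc
Jph2, chr2:163397994-163398243, minus strand: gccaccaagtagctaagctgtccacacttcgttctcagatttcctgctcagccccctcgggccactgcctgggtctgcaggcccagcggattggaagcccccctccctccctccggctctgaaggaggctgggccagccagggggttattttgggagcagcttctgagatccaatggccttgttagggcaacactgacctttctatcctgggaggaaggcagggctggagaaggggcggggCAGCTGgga
Casq1, chr1:172219896-172220145, minus strand: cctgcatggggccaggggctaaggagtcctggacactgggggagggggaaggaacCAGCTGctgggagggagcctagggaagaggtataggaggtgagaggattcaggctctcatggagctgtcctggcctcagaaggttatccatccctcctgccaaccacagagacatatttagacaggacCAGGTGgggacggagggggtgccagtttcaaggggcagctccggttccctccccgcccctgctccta
Casq2, chr3:102086165-102086414, plus strand: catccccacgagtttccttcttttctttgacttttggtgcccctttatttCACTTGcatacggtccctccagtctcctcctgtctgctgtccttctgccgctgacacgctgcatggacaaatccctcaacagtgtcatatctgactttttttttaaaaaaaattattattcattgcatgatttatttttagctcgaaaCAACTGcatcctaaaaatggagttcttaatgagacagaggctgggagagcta

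The Cacna1s window holds CAGATG and CAGCTG, beginning 160 and 123 bases before the start. That of Jph2 holds CAGCTG, beginning 9 bases before the start used for this window. The annotated Jph2 gene reaches further upstream, to position 163398049, so this site lies inside the annotated gene. Casq1 has CAGCTG at 195 and CAGGTG at 67 bases, while Casq2 has CACTTG at 200 and CAACTG at 52 bases and neither CAGCTG nor CAGGTG. Casq2, the member with the largest rise in SB+Dox against SB, lacks those letters in this window, and Casq1 holds both. The doxycycline change of Casq1 was 0.25 in SB+Dox against SB and -0.77 in Dox against control, neither of them called. Whether these letters bear on the changes was not tested.

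Genes that work beside these members were taken from a list of 30 other triad and junction genes, of which 26 were measured. Their counts stand against the same shares of all clusters as those of the members. In SB against control 4 of the 26 fell, against 3.87% of all clusters called lower, and 22 did not pass, with a median of -0.16. Trim72, the membrane repair protein MG53, was 2.91-fold lower (adjusted p = 0.00137), Dysf (dysferlin, of membrane repair and tubule formation) 1.87-fold (adjusted p = 0.00215), Rrad, a small GTPase that binds calcium channel β subunits, 1.96-fold (adjusted p = 0.0201) and Tmem38b, a counter-ion channel of the reticulum, 1.51-fold lower (adjusted p = 0.0172). In SB+Dox against SB 8 rose, against 4.4% of all clusters called higher, and 18 did not pass, with a median of 0.15. They included the actin-binding protein gene Xirp2 at 2.68-fold (adjusted p = 6.97e-04), Dysf at 2.51-fold (2.35e-04), Hrc, a calcium-binding protein of the reticulum lumen, at 1.9-fold (0.00239), Srl (sarcalumenin) at 1.88-fold (0.02), Tmem38b at 1.76-fold (0.00239) and the phosphatase gene Mtm1 at 1.38-fold (0.03). Xirp2 in SB lay at percentiles 26.2 to 27.4 of its arrays, and Mtm1 lay below the array median in every group. Signal over background was not measured for them. The first count, in SB against control, was 2 without control replicate 2 or SB replicate 1, and 8 without SB replicate 3. Rrad lost its call there without control replicate 1 or 2 or SB replicate 1 or 2, and Tmem38b without control replicate 2 or SB replicate 1. The count of 8 in SB+Dox against SB was 4 without SB replicate 1 or 2 or SB+Dox replicate 2 or 3, and Srl lost its call in those 4 cases, as Mtm1 did in the same 4 and without SB+Dox replicate 1.

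Trdn and Asph, whose products triadin and junctin tie calsequestrin to the ryanodine receptor (Asph also encodes a hydroxylase), were both lowest in Dox. Trdn measured 7.96, 8.0 and 8.78 in SB+Dox, 8.25, 8.46 and 9.39 in SB, 7.74, 7.51 and 7.55 in Dox and 8.91, 8.88 and 8.96 in control. It was 2.49-fold lower in Dox than in control (adjusted p = 0.00413) and all Dox arrays lay below those of every other group. Asph measured 7.51, 7.40 and 7.68 in SB+Dox, 7.50, 7.35 and 7.81 in SB, 6.66, 6.50 and 6.35 in Dox and 7.27, 7.20 and 7.06 in control. It was 1.59-fold lower in Dox than in control (adjusted p = 0.00422) and in SB+Dox stood 2.04-fold above Dox (adjusted p = 8.62e-05). In Dox against control Trdn and Asph were the 2 genes of the list that fell, 5 rose and 19 did not pass. Of all clusters 3.88% were called lower and 1.43% higher. Among the 5, Rrad was 3.13-fold higher (adjusted p = 5.22e-04), Dysf 2.04-fold (7.33e-04), Trim72 1.89-fold (0.0396) and Tmem38b 1.67-fold higher (0.00413). Trim72 lost its call without any 1 of control replicates 1 and 3, Dox replicates 1 and 2, SB replicate 2 and SB+Dox replicate 2.

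Rrad measured 5.24, 4.98 and 5.01 in SB+Dox, 5.44, 5.44 and 5.28 in SB, 7.82, 8.74 and 7.45 in Dox and 6.35, 6.62 and 6.11 in control. Its Dox arrays were the highest and both groups with the inhibitor lay near the array median, at percentiles 43.5 to 50.6, and signal over background was not measured here. In SB+Dox it stood 7.6-fold below Dox (adjusted p = 1.55e-06) and 2.43-fold below control (adjusted p = 0.00396), and its interaction was -1.95 (adjusted p = 0.0191), opposite in sign to those of Casq2 and Jph2. In SB+Dox against Dox 5 genes of the list fell and 4 rose, against 3.43% of all clusters called lower and 6.97% called higher. Trim72 was 3.47-fold lower (adjusted p = 1.89e-04) and Dysf 1.52-fold lower (0.0171), while Stim1, the reticulum sensor of store-operated calcium entry, was 1.69-fold higher (0.00643) and the scaffold gene Homer1 1.61-fold higher (0.00489). Dysf lost this call without Dox replicate 2 or 3 or SB+Dox replicate 1, and the count of 9 was 6 without Dox replicate 3 or SB+Dox replicate 1. Set against control, SB+Dox had 1.88-fold higher Stim1 (adjusted p = 0.00379) and 1.72-fold higher Xirp2 (0.0303), 1.84-fold lower Trim72 (0.0487) and 1.31-fold lower S100a1, a calcium-binding protein gene (0.0416). With Rrad these were 5 of 26, against 5.26% of all clusters called in either direction. The count of 5 was 2 without control replicate 3 or SB+Dox replicate 2. Xirp2 lost its call without control replicate 3 or SB+Dox replicate 2 or 3, and Trim72 lost its call without any 1 of control replicates 1, 2 and 3, Dox replicate 1, SB replicate 2 and SB+Dox replicates 1, 2 and 3. S100a1 lost its call without any 1 of control replicates 1, 2 and 3, Dox replicates 1, 2 and 3, SB replicate 2 and SB+Dox replicates 1 and 2, and median centring ended both calls. Rrad's interaction lost its call without SB replicate 1 or 2 or SB+Dox replicate 3.

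**Figure D5:**
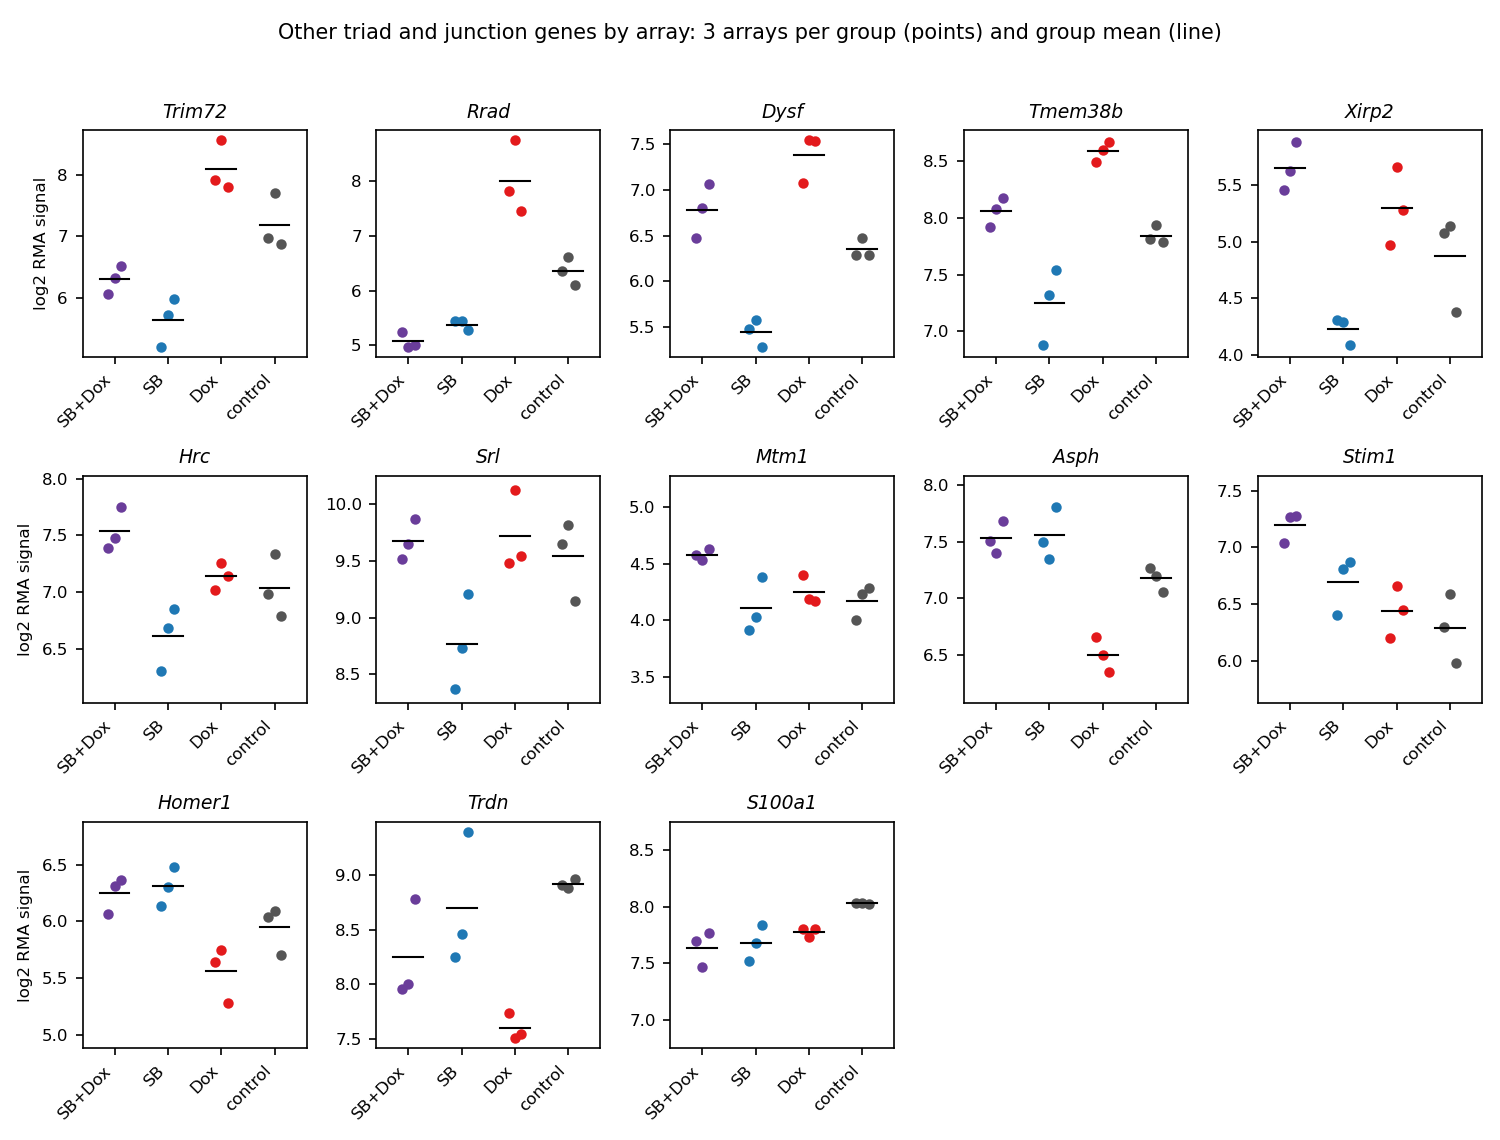
Log2 RMA signal on each of the 12 arrays for the 13 named genes among the other triad and junction genes, with 3 points per group (SB+Dox, SB, Dox, control) and a line at the group mean. Vertical axes differ between genes and do not start at 0. Trdn, Asph and Homer1 are lowest in Dox, where Rrad, Trim72, Dysf and Tmem38b are highest.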

How the data were processed

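RNA of 12 samples was measured on Affymetrix whole-transcript arrays. The authors deposited log2 signals, summarised with RMA in Affymetrix Expression Console per the submitters' processing notes; its version and the genome build are not given in the sources used here. Values ran from 0.50 to 13.17 with 0 missing. Gene symbols came from the platform annotation. Of the 21789 clusters with 1 symbol, 21698 matched a RefSeq gene table by Entrez identifier and took its current symbol. Clusters with several symbols (1621) or none (12147) were tested only in the alternative with every cluster tested.

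The 12 arrays were fitted with 1 mean per group in limma 3.58.1 (R 4.3.3, statmod 1.5.0, eBayes without trend and not robust, 8 residual and 6.56 prior degrees of freedom), with p-values adjusted by the Benjamini-Hochberg method over 21789 clusters in each comparison. The fit was tested on data simulated with independent noise on each array, which does not cover correlation between arrays of equal replicate number. Intervals are 95% intervals from the same fit and are not adjusted. For 2 clusters of 1 gene the one with the higher mean was used. Precision is set by 3 arrays per group, and arrays have no read depth.

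Members and lists were chosen with earlier results of these data known. Named were all members, Myog, and up to 6 called genes per comparison of the other triad and junction genes and up to 4 of the isoforms of other tissues, by size of change, plus the 5 genes most like the members' mean profile over 12 arrays among genes brighter than the median gene. Whether equal replicate numbers pair arrays was checked by correlating deviations from group means. Same-number arrays of SB+Dox and SB correlated at 0.19 to 0.49 and were taken as pairs, on the values alone; a block for the number left the count of members called in SB+Dox against SB at 6. In each of the other pairs of groups at least 1 correlation lay under 0.1, the minimum used, with SB+Dox and Dox at 0.09 to 0.28. Alternatives were the block, quantile normalisation, centring, leaving out dim clusters, with a mean in the lowest 25% or 50%, every cluster tested, only the groups compared, eBayes with trend or robust, array weights, the next cluster, and each array left out.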

Additional observations from a re-analysis of the deposited data

Results flagged for a closer look

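The doxycycline change differed between cells with and without the inhibitor in 3 named genes, by the interaction in limma with Benjamini-Hochberg adjustment (n = 3 arrays per group). For Casq2 the interaction was 1.35 (adjusted p = 0.0435), with a doxycycline change of 2.44 in SB+Dox against SB and 1.08 in Dox against control, both positive. The Jph2 interaction was 1.05 (adjusted p = 0.0435), with 1.20 in SB+Dox against SB and 0.15 in Dox against control. Its other cluster had an interaction of 0.64 (adjusted p = 0.173). For Rrad it was -1.95 (adjusted p = 0.0191), with Rrad called higher in Dox against control, at 1.65, and not called in SB+Dox against SB, where both groups lay near the array median. Each of the 3 calls depends on single arrays, as given with the genes.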

How the results depend on the processing

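In SB against control and SB+Dox against SB the counts of 8 and 6 members stayed within 1.5 times under each alternative. On leaving out 1 array they ran from 6 to 10 and from 4 to 8. Leave-one-out counts ran from 2 to 5 in SB+Dox against Dox, 1 to 5 in Dox against control, 1 to 4 in SB+Dox against control and 0 to 3 for the interaction. With the replicate block 4 members were called in Dox against control, 4 in SB+Dox against control (1 higher, 3 lower) and 4 for the interaction. Arrays were taken as pairs only between SB+Dox and SB, where no call changed. That choice rests on a minimum of 0.1 for every same-number correlation. SB+Dox and Dox narrowly missed it, at 0.09 to 0.28, so pairing beyond SB+Dox and SB is not excluded. Quantile normalisation gave 1 in SB+Dox against control and 0 for the interaction, and median centring 1 in Dox against control, 1 in SB+Dox against control and 1 for the interaction. With clusters under the 50th percentile left out there were 4 in each of Dox against control and SB+Dox against control. Testing every cluster gave 2 in SB+Dox against Dox, 1 in Dox against control, 1 in SB+Dox against control and 0 for the interaction, over more tests. Array weights gave 7 in SB+Dox against control (1 higher, 6 lower) and 4 for the interaction. Beyond the wider adjustment, the cause was not tested.

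Of 1322 values of single genes under alternatives 1183 kept direction and call, 71 lost a call, 55 gained one and 13 turned sign, none of the last a called value. With arrays left out singly the interaction of Cacna1s ran from -0.12 (SB+Dox replicate 3 out) to 0.36 and was -0.09 with Dox replicate 1 out. Ryr1 in SB+Dox against control ran from -0.30 to 0.04 (control replicate 2 out) and was 0.03 with SB+Dox replicate 1 out. Ryr3 in SB+Dox against SB ran from -0.17 to 0.10 (SB replicate 3 out), was 0.09 with SB+Dox replicate 1 out, 0.02 after quantile normalisation, 0.03 after centring and 0.02 with array weights. In SB+Dox against Dox it ran from -0.09 (SB+Dox replicate 3 out) to 0.18 and was -0.01 with Dox replicate 3 out. Casq1 ran from -0.02 (SB+Dox replicate 3 out) to 0.40 in SB+Dox against SB and from -0.39 to 0.03 (SB+Dox replicate 2 out) in SB+Dox against Dox. Counts for the other triad and junction genes, recomputed under alternatives chosen after seeing the data, ran from 2 to 11 in SB against control, 4 to 10 in SB+Dox against SB, 2 to 8 in SB+Dox against control and 0 to 4 for the interaction. Testing every cluster, only the groups compared, leaving out dim clusters and robust eBayes were not among these alternatives. The same holds for the isoforms of other tissues, so these ranges are not comparable with those of the members. Signal over background was not used, which limits what can be said of levels near or below the array median. Among these were Ryr3 and Casq1 in most groups, Cacna1s and Dysf in SB, and Rrad in SB+Dox and SB. Mtm1 and Xirp2 had such levels in every group.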

Other observations

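Genes of the same families that serve other tissues, such as the cardiac Ryr2 and Cacna1c and the neuronal Jph3 and Jph4, were set beside the members. Of 21 listed isoforms 18 were measured, and by limma 0 were called in SB against control (1 at an unadjusted p under 0.05), 0 in Dox against control (0 unadjusted) and 0 for the interaction (3 unadjusted), against 6.38%, 5.31% and 0.895% of all clusters. In each of SB+Dox against SB, against Dox and against control 2 of the 18 were called, all higher, against 7.11%, 10.4% and 5.26% of all clusters. Stac2, an adaptor of the same family as Stac3, stood in SB+Dox 1.51-fold above SB (adjusted p = 0.00239), 1.28-fold above Dox (0.0318) and 1.32-fold above control (0.0324). Itpr3, an inositol trisphosphate receptor of the reticulum, stood in SB+Dox 1.43-fold above Dox (adjusted p = 0.00182) and 1.33-fold above control (0.0193), and Itpr2 1.36-fold above SB (0.045). The calls on Stac2 against Dox and control, on Itpr3 against control and on Itpr2 were each lost on leaving out single arrays. That was so without any 1 of the Dox or SB+Dox arrays for Stac2 against Dox, and without control replicate 2 or 3 or any SB+Dox array for Stac2 against control. Itpr3 against control was lost without any control array or SB+Dox replicate 2 or 3, and Itpr2 without control replicate 1, Dox replicate 1, SB replicate 1 or 2, or any SB+Dox array. Quantile normalisation also ended the calls on Itpr2 and on Stac2 against Dox and control. Markers of adipocytes, osteoblasts, endothelium, blood and neurons lay below the array median in every group.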
